A study of Mus musculus with 2 samples.

Results

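The genes of the major histocompatibility complex (MHC) and of antigen processing were examined in mouse hematopoietic stem cells (HSCs). The set held every gene whose symbol begins with H2-, the mouse MHC prefix, together with the light chain gene B2m, Cd74, the transactivator genes Ciita and Nlrc5, and 10 processing genes. It came to 56 of the 23210 genes used: 32 of MHC class I, 12 of class II, 10 of processing, and 2 that carry the prefix without encoding an MHC chain. RNA sequencing was available for 2 libraries of bone marrow cells of the CD150+ Flt3- LSK phenotype, LSK being cells without lineage markers and with Sca-1 and Kit. One library came from cells positive for the Satb1-Tomato reporter (SATB1-positive) and the other from cells negative for it (SATB1-negative), with 1 library per group. SATB1 is a chromatin-organizing protein of lymphoid cells. The sources used here do not give strain, age, the number of animals or any treatment, and the reporter marks a fraction of a gated population, not a clone.

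MHC class I molecules consist of a heavy chain, the light chain beta-2-microglobulin and a peptide, and they stand on nearly all nucleated cells, where CD8+ T cells and natural killer (NK) cells read them. Their peptides are cut by proteasomes, carried into the endoplasmic reticulum by the TAP transporter, trimmed, and loaded with the help of chaperones. MHC class II molecules, found mainly on B cells, dendritic cells and macrophages and also on part of the stem and progenitor cells, carry peptides from endosomes, guarded until then by the invariant chain and loaded with the help of the DM and DO proteins. In mouse marrow, NK cells destroy transplanted cells that lack class I molecules.

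Values are FPKM, fragments scaled by transcript length and by the library's mapped fragments, so that levels of different genes can be set side by side. The difference of a gene is given as log2((SATB1-positive FPKM + 1)/(SATB1-negative FPKM + 1)). Without replicates there is no test. The rule of size required a log2 ratio of 1 or more, or of -1 or less, and 5 FPKM or more in the higher of the 2 libraries. A gene that reached 1 FPKM in one of them was called measured. The interval beside a plain fold of FPKM is a 95% exact (Clopper-Pearson) interval for counting error only, from estimated fragment numbers. Differences among animals or sorts are outside it, and it can be too narrow because PCR copies count as separate fragments. In RNA from a bulk sort, fewer cells of a type and less RNA per cell cannot be told apart.

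The depths, estimated from low FPKM values and not reported by the authors, were about 26560000 fragments (SATB1-positive) and 34920000 fragments (SATB1-negative). Satb1 was at 8.26 FPKM in the SATB1-positive and 2.37 FPKM in the SATB1-negative library, in the direction of the sort. The gate genes Kit (286 FPKM in SATB1-positive and 318 FPKM in SATB1-negative cells), Ly6a, which encodes Sca-1 (73.9 and 64.5 FPKM in the same order), and Slamf1, which encodes CD150 (11.9 and 15.97 FPKM), were present in both. Flt3, whose protein was gated out, was at 27.1 FPKM in SATB1-positive and 17.3 FPKM in SATB1-negative cells.

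The elements known from class I promoters lie at a fixed distance in several of these genes, and they are shown because the light chain gene, which had the lowest ratio, shares them with the heavy chain genes H2-K1, H2-D1 and H2-M3. In stretches of 50 bases from the RefSeq promoter windows (build GRCm38.p6; 250 bases before to 50 after the start of the gene), the capitals mark TGACG, the core of the X2 box, and ATTGG, the Y box, which is CCAAT on the other strand.
B2m (chr2:122147599-122147648, plus strand): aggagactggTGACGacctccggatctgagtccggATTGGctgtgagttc
H2-K1 (chr17:34000349-34000398, minus strand): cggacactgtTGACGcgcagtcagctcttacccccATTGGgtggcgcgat
H2-D1 (chr17:35262983-35263032, plus strand): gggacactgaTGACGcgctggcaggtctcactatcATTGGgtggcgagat
H2-M3 (chr17:37270178-37270227, plus strand): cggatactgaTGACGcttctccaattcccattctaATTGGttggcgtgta
In all 4 genes, which are shown because they have this spacing, exactly 20 bases separate TGACG from ATTGG. The spacing, noticed in these windows and then counted on both strands, was present in 31 of 32851 promoter windows (0.0944%). Of the 45 member windows only 5 had it, all of these 4 genes, H2-K1 having 2 windows. CCAAT alone was in 36 of the 45 windows of 41 matched members and in 37.4% of all windows, and TGACG alone was in 19 of the 45 and in 20.8% of all. The interferon response motif was searched as GAAA and GAAA with 2 bases between. It was in 4 member windows (B2m, Erap1, H2-T22 and H2-T23) and in 3.44% of all. The kappa B motif, searched as GGGAA and TTCC with 1 base between, was in 0 member windows and in 0.341% of all. Only these exact letters were counted, so a window without a match can still hold a variant of either element. Such matches describe letters in a window and not binding.

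The most abundant members were the class I genes B2m, H2-D1 and H2-K1, and 19 of the 56 members were under 1 FPKM in both libraries. Of the 56 members, 37 were measured and 35 had at least 5 FPKM. Of these 35, 0 met the rule of size, against 2% of the 9308 genes with at least 5 FPKM (1.31% higher and 0.688% lower in SATB1-positive cells), a share so small that the count of 0 does not set the members apart. At a smaller fold of 1.5, on the same scale, 1 member was higher in the SATB1-positive library (Calr) and 0 were lower, where the background was 3.8% higher and 2.9% lower. The member ratios ran from -0.55 (B2m) to 0.70 (Calr). Ratios below 0 were found for 24 of the 37 measured members and ratios above 0 for 13, while 51% of the 11873 measured genes had a ratio below 0. The members' median log2 ratio was -0.07, beside -0.0059 over all measured genes, and their median absolute ratio was 0.22, beside 0.17.

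**Figure D1:**
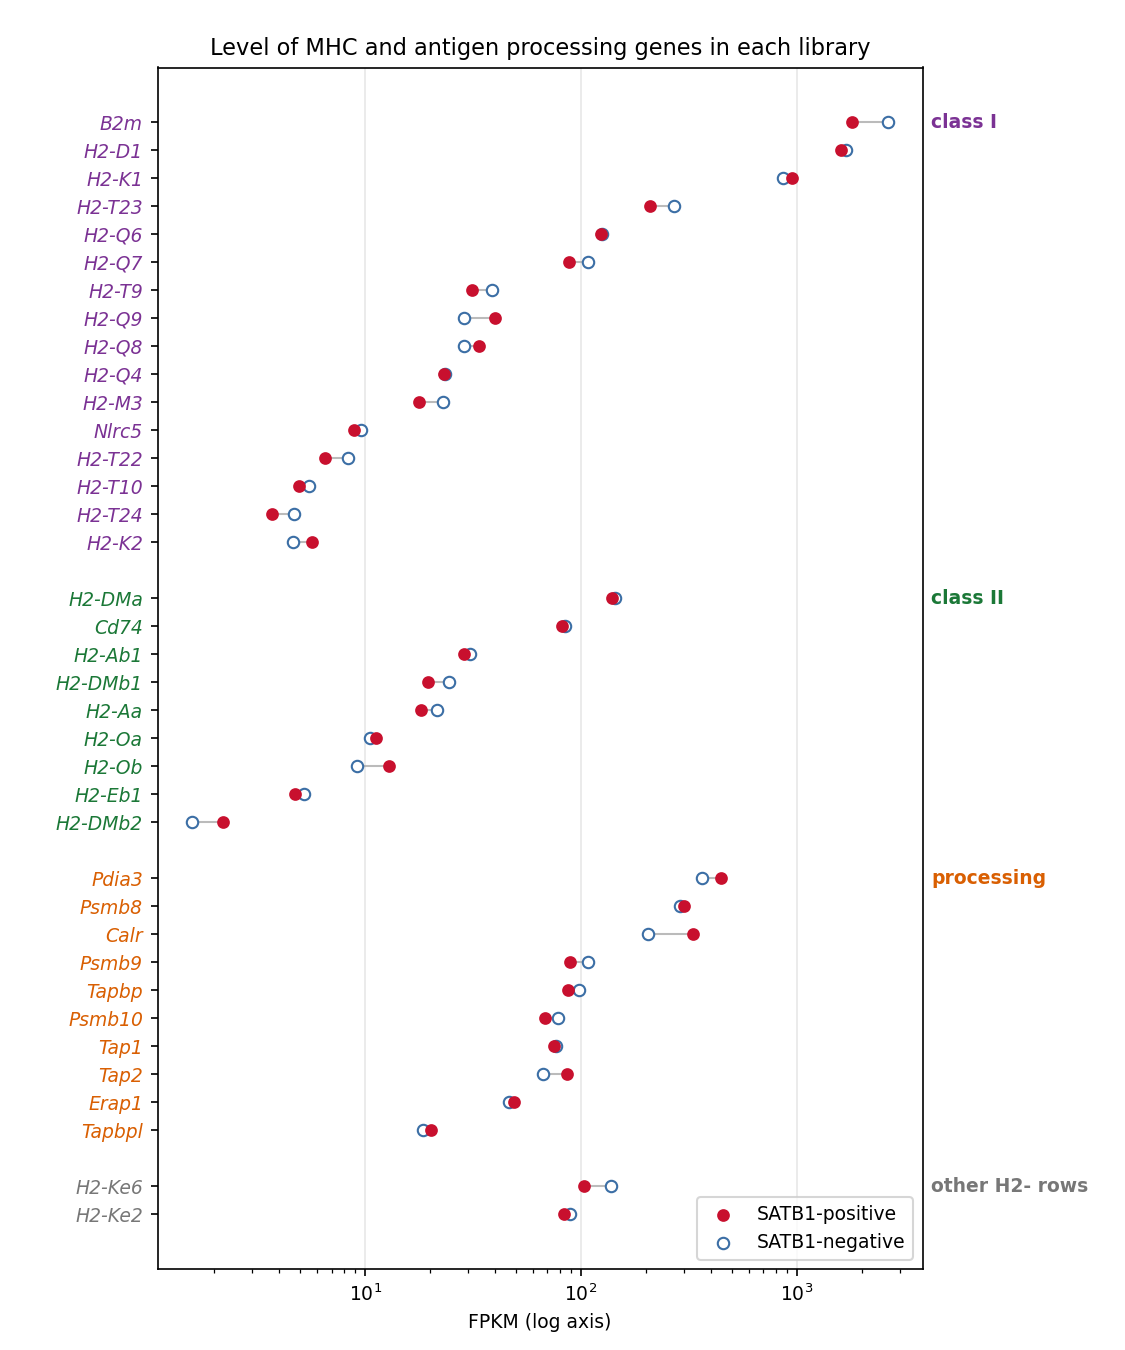
FPKM (log axis) of the 37 measured members in the SATB1-positive (filled red) and SATB1-negative library (open blue), grouped into class I, class II, processing and other H2- genes and ordered by level. B2m and the heavy chains H2-D1 and H2-K1 are the highest, and most pairs of points lie close together, with the widest gaps for Calr and B2m.

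Class I genes made up most of the expression in the set. B2m, which encodes beta-2-microglobulin (chr2:122147686-122153083 of GRCm38, plus strand, ENSMUSG00000060802.8), was at 1801 FPKM in SATB1-positive and 2644 FPKM in SATB1-negative cells. It was the 13th most abundant gene in SATB1-positive and the 7th in SATB1-negative cells. This is 1.47-fold lower in SATB1-positive cells (1.45 to 1.49; about 31801 fragments in the SATB1-positive and 60464 in the SATB1-negative library). Its log2 ratio of -0.55 was the lowest of the set. Of the 9308 genes with at least 5 FPKM, 3.48% had a ratio as low or lower, and of the 956 genes with at least 100 FPKM, 24 genes (2.51%) did. None of the 50-base words of the B2m transcripts occurred in transcripts of another gene (0%), so its fragments are not open to confusion with a copy at that length.

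The heavy chains that pair with this light chain were close in sum. The classical heavy chain genes, whose products present peptides to CD8+ T cells, were H2-D1 at 1608 FPKM in SATB1-positive and 1687 FPKM in SATB1-negative cells, and H2-K1 at 950.0 FPKM in SATB1-positive and 864 FPKM in SATB1-negative cells. H2-D1 was thus 0.953-fold (0.945 to 0.962) and H2-K1 1.10-fold (1.08 to 1.12), in opposite directions. Their sum was 2558 FPKM in the SATB1-positive and 2551 FPKM in the SATB1-negative library. Over all 30 heavy chain rows the sum was 3146 FPKM in SATB1-positive and 3222 FPKM in SATB1-negative cells, a fold of 0.977. B2m per unit of heavy chain, a ratio within a library that no scaling of the library can alter, was 0.572 in SATB1-positive and 0.821 in SATB1-negative cells. Light chain transcript was therefore 0.697 times as abundant per heavy chain transcript in the SATB1-positive library.

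**Figure D2:**
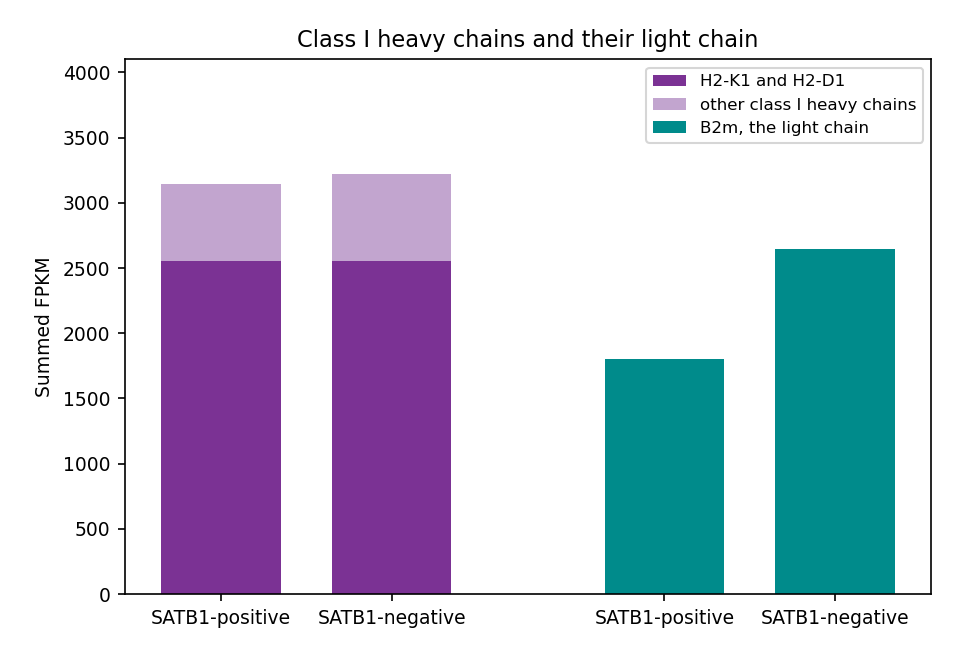
Summed FPKM of the class I heavy chains (H2-K1 and H2-D1 in dark, the other heavy chains in light purple) and FPKM of B2m (teal) in the SATB1-positive and SATB1-negative library, 1 library per bar and no error bar. The heavy chain bars reach 3146 and 3222 FPKM and the B2m bars 1801 and 2644 FPKM, in the order SATB1-positive, SATB1-negative.

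The non-classical heavy chains, which have narrower or other roles than peptide display to CD8+ T cells, were lower in sum, at 589 FPKM in SATB1-positive and 671 FPKM in SATB1-negative cells (0.877-fold). H2-T23, which encodes Qa-1, the ligand of the inhibitory NK receptor CD94-NKG2A, was the most abundant, at 209 FPKM in SATB1-positive and 271 FPKM in SATB1-negative cells, or 0.770-fold (0.748 to 0.793). H2-M3, whose product displays formylated bacterial peptides, was at 17.8 FPKM in SATB1-positive and 23.02 FPKM in SATB1-negative cells, 0.772-fold (0.696 to 0.856). Both were below the SATB1-negative level by about the same factor. H2-T22, a ligand of some gamma delta T cell receptors, was at 6.50 FPKM in SATB1-positive and 8.34 FPKM in SATB1-negative cells (0.779-fold, 0.667 to 0.907), and its relative H2-T10 at 4.96 and 5.47 FPKM in the same order (0.907-fold, 0.800 to 1.03). H2-T9 was at 31.3 FPKM in SATB1-positive and 38.6 FPKM in SATB1-negative cells (0.812-fold), and H2-T24, under 5 FPKM in both, at 3.69 FPKM in SATB1-positive and 4.67 FPKM in SATB1-negative cells. All 5 of these measured H2-T genes thus had a ratio below 0. H2-T22 and H2-T10 share 31.2% of the 50-base words of H2-T22, so the split between them is uncertain, and both have exons that overlap a gene on the opposite strand.

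The H2-Q genes went both ways. H2-Q7, which encodes a Qa-2 antigen, was at 88.0 FPKM in SATB1-positive and 108 FPKM in SATB1-negative cells (0.813-fold, 0.770 to 0.858), and H2-Q6 at 123 FPKM in SATB1-positive and 125 FPKM in SATB1-negative cells (0.989-fold, 0.940 to 1.04). H2-Q8 was at 33.6 FPKM in SATB1-positive and 28.7 FPKM in SATB1-negative cells (1.17-fold), and H2-Q9, which also encodes Qa-2, at 39.9 and 28.8 FPKM in the same order (1.39-fold). These genes resemble one another: 34.97% of the 50-base words of H2-Q6 and 26.5% of those of H2-Q7 occur in transcripts of other genes. H2-Q8, H2-Q9 and H2-T9 were not matched in the annotation used here, so their sharing was not measured and they have no interval. Summed over H2-Q6 to H2-Q9, the level was 285 FPKM in SATB1-positive and 290.5 FPKM in SATB1-negative cells, 0.981-fold. The sum depends less on how fragments were divided among these genes, but not wholly: their lengths differ, and H2-Q7 shares 14.03% of its words with H2-Q10 and H2-Q6 12.3% with H2-Q4, both outside the sum. H2-Q4 was at 23.2 FPKM in SATB1-positive and 23.4 FPKM in SATB1-negative cells (0.992-fold, 0.911 to 1.08). Of its words, 36.4% occur in transcripts of other genes, 15.3% in a gene that overlaps its exons on the opposite strand. H2-K2, annotated as a transcribed pseudogene, was at 5.68 FPKM in SATB1-positive and 4.65 FPKM in SATB1-negative cells (1.22-fold, 1.01 to 1.48).

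Nlrc5, the transactivator of class I genes, was at 8.90 FPKM in SATB1-positive and 9.61 FPKM in SATB1-negative cells (0.926-fold, 0.868 to 0.988). Over the 16 measured class I members, 4 had a ratio above 0 and 12 below, with a median of -0.11 and a range from -0.55 to 0.46. The classical genes H2-K1 and H2-D1 gave 81.3% of the heavy chain FPKM in the SATB1-positive and 79.2% in the SATB1-negative library. The other 16 class I members were under 1 FPKM in both libraries, the highest of them at 0.649 FPKM in SATB1-positive (H2-Q10) and 0.514 FPKM in SATB1-negative cells (H2-Q2). Of these 16, 8 were listed at 0 in both, namely H2-M1, H2-M11 and H2-M10.1 to H2-M10.6; the H2-M10 genes are known from the vomeronasal organ. The others were H2-Q1, H2-Bl, H2-M2, H2-M5, H2-M9 and H2-T3. H2-T3, which encodes the thymus leukemia antigen, was at 0.114 FPKM in SATB1-positive and 0.437 FPKM in SATB1-negative cells, about 6 and 32 fragments in the same order.

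**Figure D3:**
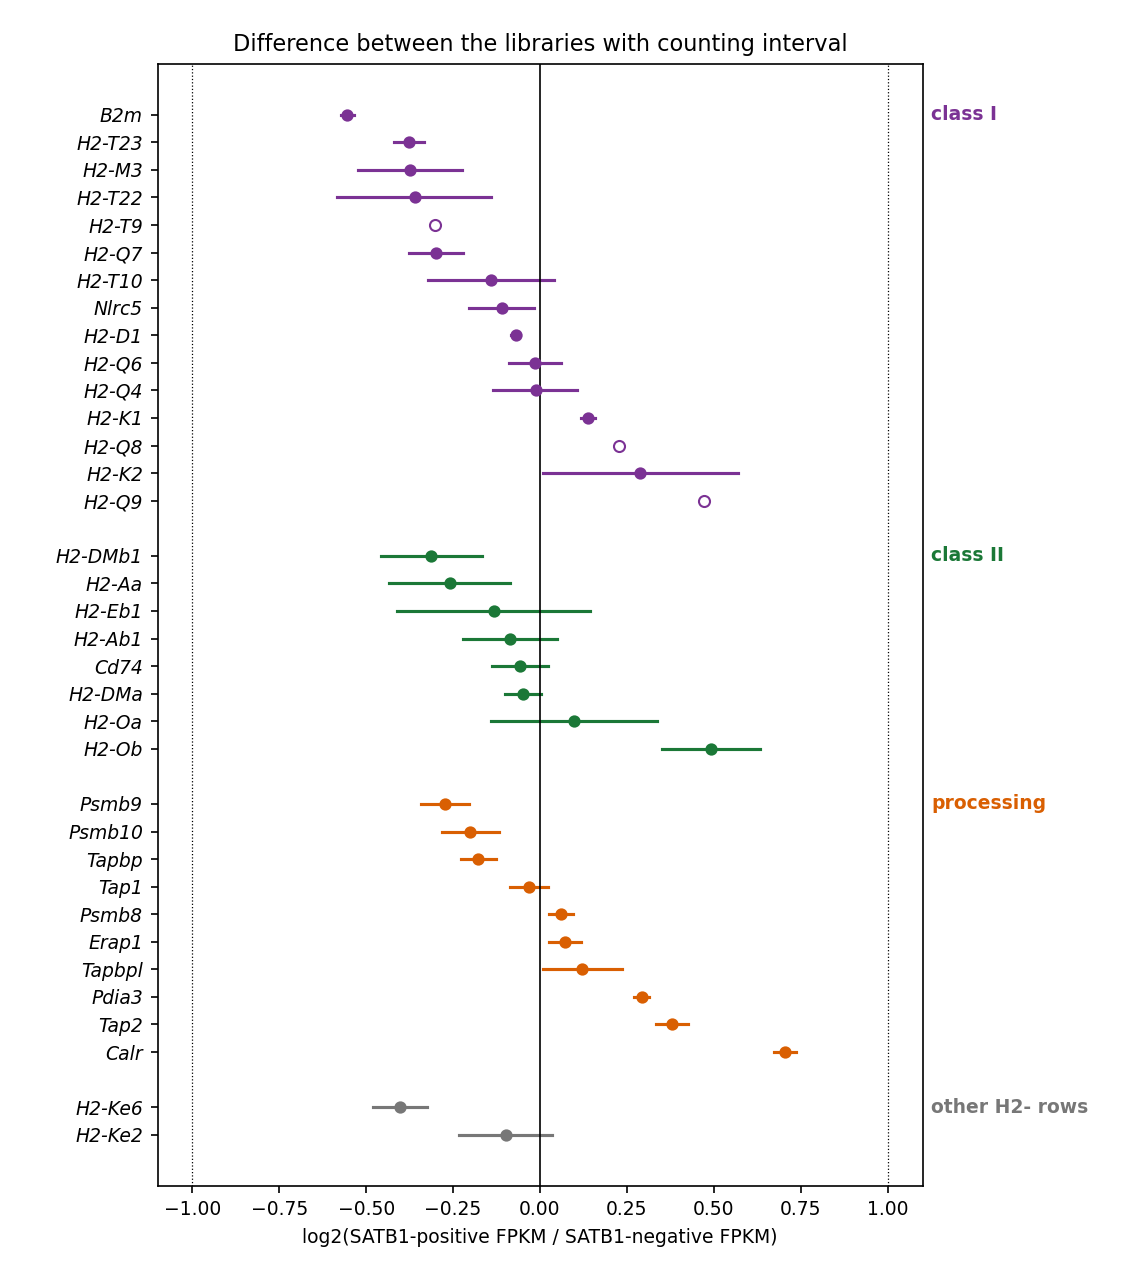
log2 of the plain FPKM fold (SATB1-positive over SATB1-negative) of the 35 members with at least 5 FPKM, with 95% counting intervals (lines); open points have no interval, and dotted lines stand at -1 and 1. No member reaches a dotted line, and the members at the extremes are B2m on the left and Calr on the right.

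Class II chain genes were expressed at lower levels than H2-K1 and H2-D1. H2-Ab1 and H2-Aa encode the beta and alpha chains of I-A. H2-Ab1 was at 28.9 FPKM in SATB1-positive and 30.7 FPKM in SATB1-negative cells (0.942-fold, 0.858 to 1.03), and H2-Aa at 18.1 FPKM in SATB1-positive and 21.6 FPKM in SATB1-negative cells (0.835-fold, 0.740 to 0.941). H2-Eb1, the beta chain of I-E, was at 4.73 FPKM in SATB1-positive and 5.18 FPKM in SATB1-negative cells (0.912-fold, 0.751 to 1.10). The row of its alpha partner, H2-Ea-ps, was listed at 0 in both libraries; some mouse strains, C57BL/6 among them, carry an inactive allele of that gene. Cd74, the invariant chain that guards the class II groove, was at 81.4 FPKM in SATB1-positive and 84.7 FPKM in SATB1-negative cells (0.961-fold, 0.909 to 1.02), above H2-Ab1, H2-Aa and H2-Eb1 in both libraries.

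The DM and DO genes edit the peptide load of class II molecules. Of these, H2-Ob, H2-DMb1 and H2-DMb2 differed more between the libraries than the other measured class II genes, while H2-DMa and H2-Oa had log2 ratios of -0.05 and 0.09. H2-DMa was the most abundant class II gene, at 139 FPKM in SATB1-positive and 144 FPKM in SATB1-negative cells (0.967-fold, 0.933 to 1.001). Its partner H2-DMb1 was at 19.6 FPKM in SATB1-positive and 24.4 FPKM in SATB1-negative cells (0.805-fold, 0.728 to 0.890), while the second beta gene, H2-DMb2, was at 2.19 and 1.58 FPKM in the same order (1.38-fold, 0.976 to 1.96). H2-DMb1 and H2-DMb2 have 22.7% of the words of H2-DMb1 in common. H2-Ob, the beta chain of DO, which restrains DM, was at 12.9 FPKM in SATB1-positive and 9.18 FPKM in SATB1-negative cells, 1.40-fold (1.27 to 1.55). H2-Oa, its alpha partner, was at 11.2 FPKM in SATB1-positive and 10.5 FPKM in SATB1-negative cells (1.07-fold, 0.908 to 1.26). H2-Ob shares no 50-base word with another gene. H2-Oa and H2-DMa each have exons that overlap a gene on the opposite strand. H2-Oa shares 15.5% of its words with that gene and H2-DMa 8.43% with Brd2, so their levels carry this uncertainty.

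Ciita, the transactivator of class II genes, was under 1 FPKM in both, at 0.360 FPKM in SATB1-positive and 0.761 FPKM in SATB1-negative cells (0.473-fold, 0.313 to 0.697; about 36 and 100 fragments in the same order). This level is too low for the rule of size. H2-Eb2 was listed at 0 in SATB1-positive and at 0.109 FPKM in SATB1-negative cells. Over the 9 measured class II members, 3 had a ratio above 0 and 6 below, and the median was -0.06 with a range from -0.30 to 0.45.

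Markers of B cells and most markers of dendritic cells were under 1 FPKM in both libraries, whereas several monocyte and macrophage markers were well above it. Of 6 B cell markers, 0 reached 1 FPKM, their sum was 1.64 FPKM in SATB1-positive and 1.18 FPKM in SATB1-negative cells, the highest was Cd79a at 0.600 FPKM in SATB1-positive and 0.205 FPKM in SATB1-negative cells, and Pax5 was listed at 0 in the SATB1-positive and at 0.0286 FPKM in the SATB1-negative library. The 7 dendritic cell markers had a sum of 4.91 FPKM in SATB1-positive and 5.01 FPKM in SATB1-negative cells, and 2 of them reached 1 FPKM. The 2 were Zbtb46 (2.23 FPKM in SATB1-positive and 2.13 FPKM in SATB1-negative cells) and Cd209a (1.199 and 1.35 FPKM in the same order). Of those under 1 FPKM, Itgax, which encodes CD11c, was higher in SATB1-positive cells (0.362 and 0.0828 FPKM in the same order). Lower there were Clec9a (0.601 and 0.850 FPKM), Xcr1 (0.123 and 0.149 FPKM), Siglech (0.171 and 0.223 FPKM) and Batf3 (0.221 and 0.226 FPKM). Of 9 monocyte and macrophage markers found in the files, 7 were measured and 6 of these had a ratio above 0, and their sum was 335 FPKM in SATB1-positive and 188 FPKM in SATB1-negative cells, most of it from Ly6c2. Csf1r, the receptor gene of that lineage, was at 7.14 FPKM in SATB1-positive and 3.94 FPKM in SATB1-negative cells. The 6 T and NK cell markers found were all higher in the SATB1-positive library, with a sum of 53.7 FPKM in SATB1-positive and 11.8 FPKM in SATB1-negative cells, and 4 of them met the rule of size (1.31% of genes with at least 5 FPKM did so in this direction). Those 4 were Il2rb (13.6 FPKM in SATB1-positive and 1.69 FPKM in SATB1-negative cells), Cd3e (15.4 and 2.75 FPKM in the same order), Cd3g (13.2 and 2.95 FPKM) and Cd3d (5.68 and 1.38 FPKM). Of 7 stem cell markers, 6 had a ratio below 0 and 1, Ly6a, had a ratio above 0. Their sum was 513 FPKM in SATB1-positive and 614 FPKM in SATB1-negative cells. Among the 6 lower in the SATB1-positive library were Mecom (31.1 FPKM in SATB1-positive and 49.4 FPKM in SATB1-negative cells), Esam (34.2 and 68.5 FPKM in the same order) and the stem cell transcription factor gene Hlf (58.4 and 72.7 FPKM). The part of these marker differences in the member values was not tested.

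Processing genes had ratios on both sides of 0, and Calr, Tap2 and Pdia3 had the highest. Calr encodes calreticulin, a chaperone of the endoplasmic reticulum that binds glycans and holds new class I molecules in the peptide-loading complex. It was at 332 FPKM in the SATB1-positive, against 204 FPKM in the SATB1-negative library, 1.63-fold higher (1.59 to 1.67; about 17541 and 14086 fragments in the same order). Its log2 ratio of 0.70 was the highest of the set, and 2.51% of the 9308 genes with at least 5 FPKM and 3.35% of the 956 genes with at least 100 FPKM had a ratio as high or higher. Pdia3, the oxidoreductase that works with calreticulin in that complex, was at 444 FPKM in SATB1-positive and 363 FPKM in SATB1-negative cells (1.22-fold, 1.21 to 1.24). The promoter window of Calr (chr8:84846882-84847181 of GRCm38.p6, minus strand) is shown because it was the single member window with the endoplasmic reticulum stress element, CCAAT and CCACG with 9 bases between, a motif added after the values were seen and present in 39 of all 32851 windows (0.119%). The capitals mark this element, which lies on the other strand, and the CCAAT matches on either strand, 1 of them inside the element.
Calr: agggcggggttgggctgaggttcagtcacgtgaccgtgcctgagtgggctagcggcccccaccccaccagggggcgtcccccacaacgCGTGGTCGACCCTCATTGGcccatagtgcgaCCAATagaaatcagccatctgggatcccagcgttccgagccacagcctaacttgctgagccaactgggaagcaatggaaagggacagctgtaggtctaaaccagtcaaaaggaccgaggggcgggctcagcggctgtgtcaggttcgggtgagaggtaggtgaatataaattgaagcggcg

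The other members of the loading complex did not share the level of difference of Calr. Tapbp, which encodes tapasin, the bridge between TAP and class I, was at 86.8 FPKM in SATB1-positive and 98.2 FPKM in SATB1-negative cells (0.885-fold, 0.855 to 0.915). Tapbpl, a related peptide editor outside the complex, was at 20.2 FPKM in SATB1-positive and 18.5 FPKM in SATB1-negative cells (1.09-fold, 1.01 to 1.18). The subunits of the TAP transporter differed from each other. Tap2 was at 86.5 FPKM in SATB1-positive and 66.5 FPKM in SATB1-negative cells (1.30-fold, 1.26 to 1.34), and Tap1 at 75.2 FPKM in SATB1-positive and 76.8 FPKM in SATB1-negative cells (0.979-fold, 0.943 to 1.02). Of the words of Tap2, 11.6% are shared with other genes, and of those of Tapbp 23.2%, in both cases mostly with genes that overlap their exons on the opposite strand. Whether the authors' counting used strand is not given in the sources used here.

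The immunoproteasome subunits replace constitutive catalytic subunits and favour cuts that suit class I. Psmb8 was at 299.7 FPKM in SATB1-positive and 287 FPKM in SATB1-negative cells (1.04-fold, 1.02 to 1.07). Psmb9, which shares a divergent start region with Tap1, was at 88.8 FPKM in SATB1-positive and 107 FPKM in SATB1-negative cells (0.827-fold, 0.788 to 0.868), and Psmb10 at 68.3 FPKM in SATB1-positive and 78.5 FPKM in SATB1-negative cells (0.870-fold, 0.822 to 0.921). Set against the constitutive subunit that each replaces, Psmb8 per Psmb5 was 2.30 in SATB1-positive and 2.15 in SATB1-negative cells, Psmb9 per Psmb6 was 0.584 and 0.655, and Psmb10 per Psmb7 was 0.940 and 1.18, each in the same order. So 1 of these 3 ratios was higher and 2 were lower in SATB1-positive cells. Erap1, the aminopeptidase that trims peptides in the endoplasmic reticulum, was at 49.0 FPKM in SATB1-positive and 46.6 FPKM in SATB1-negative cells (1.05-fold, 1.02 to 1.08). Over the 10 processing members, 6 had a ratio above 0 and 4 below, and the median was 0.06 with a range from -0.27 to 0.70.

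**Figure D4:**
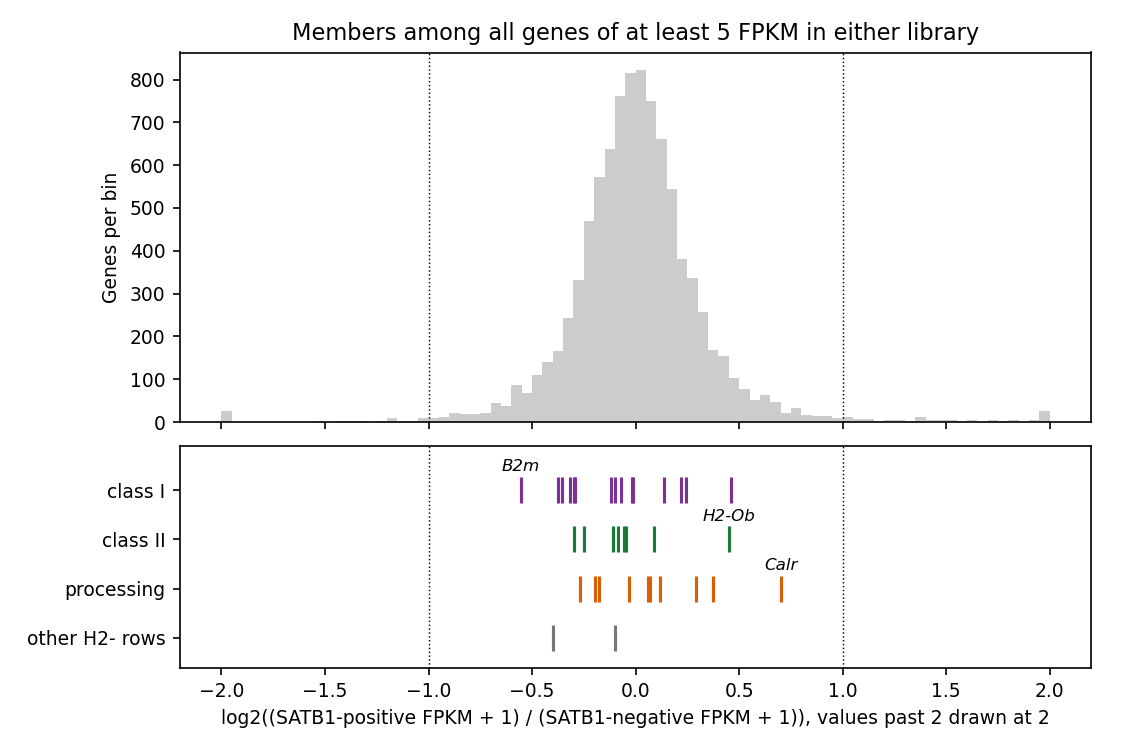
Upper panel, histogram of log2((SATB1-positive FPKM + 1)/(SATB1-negative FPKM + 1)) for the 9308 genes that reached 5 FPKM; lower panel, the 35 members at that level as ticks by group, with dotted lines at -1 and 1. The ticks lie within the body of the histogram, and B2m (-0.55) and Calr (0.70) lie toward its tails.

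The remaining H2- genes lie in the MHC region of chromosome 17 without encoding MHC chains. H2-Ke6, a dehydrogenase gene, was at 104 FPKM in SATB1-positive and 137 FPKM in SATB1-negative cells (0.756-fold, 0.717 to 0.798). H2-Ke2, the prefoldin subunit gene Pfdn6, was at 83.1 FPKM in SATB1-positive and 89.1 FPKM in SATB1-negative cells (0.934-fold, 0.851 to 1.02). Of the words of H2-Ke6, 70.5% are shared with a gene annotated over it on the same strand, so its value is uncertain.

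Lists of genes of the same pathways outside the set had medians on both sides of 0. Of 21 regulators of class I and class II genes, 20 had at least 5 FPKM, 0 met the rule of size and 1 was past a fold of 1.5 (Irf8, higher). Over all genes with at least 5 FPKM, 2% met the rule of size and 3.8% were past a fold of 1.5 as higher, so these counts do not set the list apart. Among the 21 regulators, 10 had a ratio above 0 and 11 below, and the median was -0.04. The highest among them were Irf8, a transcription factor of monocytes, dendritic cells and B cells (24.1 FPKM in SATB1-positive and 12.5 FPKM in SATB1-negative cells; 1.92-fold, 1.76 to 2.09), and the interferon gamma receptor gene Ifngr1 (138 and 106 FPKM in the same order). The lowest were Irf2 (50.02 FPKM in SATB1-positive and 67.0 FPKM in SATB1-negative cells) and Rfxank, a subunit of the RFX complex that binds class II promoters (6.70 and 8.82 FPKM in the same order). Irf1, an activator of class I genes, was at 82.3 FPKM in SATB1-positive and 75.3 FPKM in SATB1-negative cells.

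Of 12 partners in the endoplasmic reticulum and the proteasome, 9 had a ratio above 0 and 3 below, with a median of 0.14. The rule of size was met by 0 of them, beside 2% of all genes with at least 5 FPKM. All 6 chaperone and folding genes of this list were above 0 (median 0.19, from 0.15 to 0.38), a subgroup picked after their values were seen. Uggt1, the glucosyltransferase that returns misfolded glycoproteins to calreticulin, was at 18.2 FPKM in SATB1-positive and 13.8 FPKM in SATB1-negative cells (1.32-fold, 1.27 to 1.38), and Pdia6 at 227 and 181 FPKM in the same order (1.25-fold, 1.22 to 1.28). Canx, which encodes calnexin, the membrane-bound relative of calreticulin, was at 189 FPKM in SATB1-positive and 169 FPKM in SATB1-negative cells. Calr per Canx was thus 1.76 in SATB1-positive and 1.20 in SATB1-negative cells. The lowest ratios were those of Psme1, a proteasome activator subunit (230.1 FPKM in SATB1-positive and 251 FPKM in SATB1-negative cells), and Psmb6 (152 and 164 FPKM in the same order).

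Of the 8 genes of the endosomal class II route found in the files, 5 had a ratio above 0 and 3 below, with a median of 0.08. Ctss, the cathepsin that degrades the invariant chain, was at 18.7 FPKM in SATB1-positive and 15.8 FPKM in SATB1-negative cells, and Ifi30, a lysosomal thiol reductase, at 7.60 and 6.51 FPKM in the same order. Ctsl was at 15.9 FPKM in SATB1-positive and 21.2 FPKM in SATB1-negative cells, and the tetraspanin gene Cd9 at 110 and 142 FPKM in the same order. Of 6 measured class I-like genes encoded outside the H2 region, 5 had a ratio below 0 and the median was -0.28. Their median absolute ratio was 0.47, beside 0.17 over all measured genes. It rests on few genes, of which only 4 had at least 5 FPKM. Below that level were Hfe and Cd1d2, the latter at 0.540 FPKM in SATB1-positive and 1.16 FPKM in SATB1-negative cells (about 13 and 38 fragments in the same order). Fcgrt was past a fold of 1.5 as lower, as were 2.9% of all genes with at least 5 FPKM. It encodes the heavy chain of the neonatal Fc receptor, which also pairs with beta-2-microglobulin. Its level was 13.3 FPKM in SATB1-positive and 21.3 FPKM in SATB1-negative cells (0.625-fold, 0.564 to 0.692). Hfe, an iron regulator that pairs with the same light chain, was the 1 measured gene of this list with a ratio above 0, at 4.04 FPKM in SATB1-positive and 2.65 FPKM in SATB1-negative cells (1.52-fold, 1.31 to 1.78). Procr, which encodes the stem cell surface protein EPCR, was at 17.5 FPKM in SATB1-positive and 24.6 FPKM in SATB1-negative cells. Mr1, which presents vitamin metabolites, was at 7.66 and 8.17 FPKM in the same order, and Cd1d1, which presents lipids, at 25.3 FPKM in SATB1-positive and 26.9 FPKM in SATB1-negative cells. Of 6 costimulation genes 3 were measured; Cd274, which encodes PD-L1, was at 19.1 FPKM in SATB1-positive and 19.3 FPKM in SATB1-negative cells, and Cd86 at 3.99 and 5.05 FPKM in the same order, while Cd80 and Cd40 were under 1 FPKM in both.

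**Figure D5:**
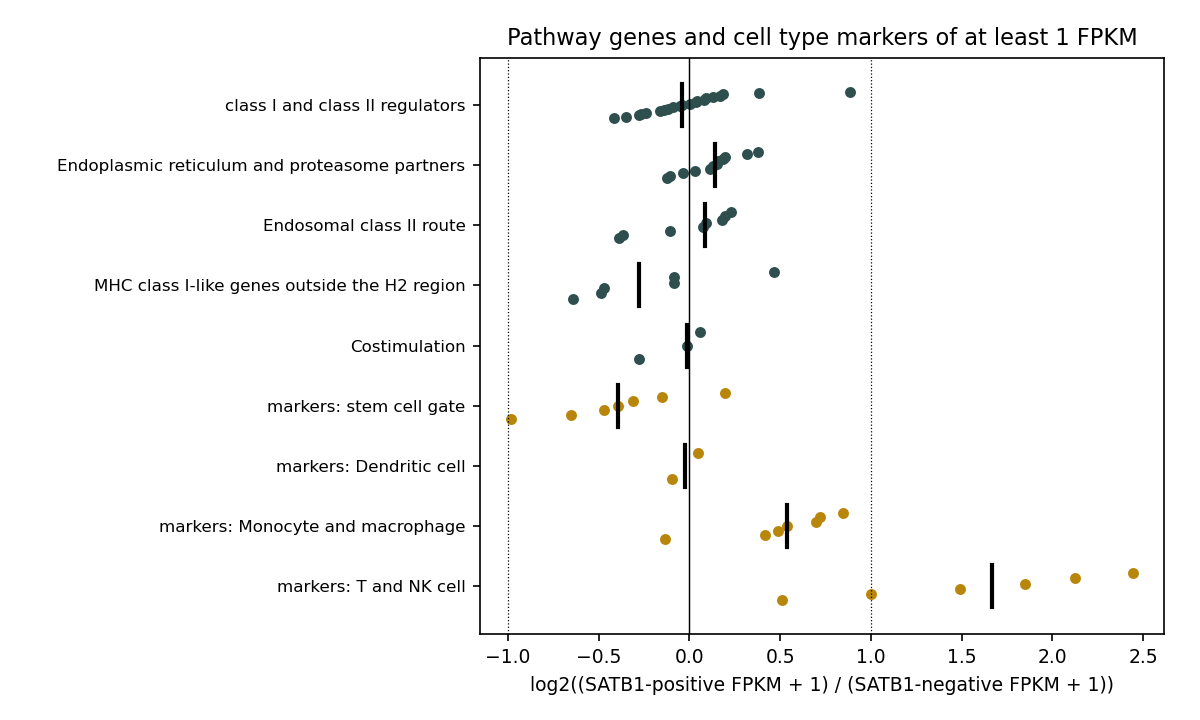
log2((SATB1-positive FPKM + 1)/(SATB1-negative FPKM + 1)) of each gene with at least 1 FPKM in either library (points) in lists of pathway genes outside the set (dark) and of cell type markers (ochre), with the list median as a bar and dotted lines at -1 and 1. The pathway lists have medians between -0.28 and 0.14, the T and NK cell markers a median of 1.67.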

How the data were processed

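Per the labels' protocols, total RNA came from the miRNeasy kit and stranded libraries from Clontech's SMARTer chemistry. The authors deposited FPKM, 1 value per gene symbol and library, per the file headers. Build mm10, Cufflinks 2.2.1, SAMtools 0.1.19, TopHat2 2.0.13 and Bowtie2 2.2.3 appear in the submitters' processing notes. Which annotation and strand setting were used is not given in the sources used here. Cufflinks divides fragments among similar or overlapping genes by a model. Reads of an MHC haplotype other than that of the reference genome can also be lost; the strain is not given in the sources used here.

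Of 23235 rows per file, 25 held a symbol turned into a spreadsheet date and were left out, with 0.172% of the FPKM in the SATB1-positive and 0.161% in the SATB1-negative library. Depth was estimated from low values of single-exon, single-transcript genes of GENCODE M21, which step by the value of 1 fragment: 62.3% of 223 (SATB1-positive) and 63.4% of 191 values (SATB1-negative) were whole within 0.05 fragments at the chosen depths, against 10% for a depth taken at random. Since depths were searched for this share, 10% is not the chance level of the choice. For a transcript of 1 kb, 1 fragment equals 0.0377 FPKM (SATB1-positive) and 0.0286 FPKM (SATB1-negative). Fragments per gene used the shortest RefSeq-linked transcript. The depth procedure was tested on simulated data. Positions and the sharing of 50-base words (both strands) came from GENCODE M21, where 53 of 56 members matched, and promoters from RefSeq (GRCm38.p6). Protein identity, which had been planned, was not computed. Python 3.11.15, pandas 2.3.3, NumPy 2.4.6, SciPy 1.17.1 and matplotlib 3.10.9 were used.

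With 1 library per group no test was run. All members with at least 5 FPKM were named, and of each pathway list the 2 highest and 2 lowest ratios at that level; of the marker lists, the main members and the sums. Irf1, Canx, Hfe, Cd1d2, Cd80, Cd40, H2-DMb2, H2-T24, Ciita, H2-Eb2 and H2-T3 were named besides. Members and lists were chosen with earlier results of these data known. Alternatives were pseudocounts of 0.1 and 5, 3 scalings, no filter, and a filter of 10 FPKM; summing H2-Q6 to H2-Q9 was added after the data were seen.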

Additional observations from a re-analysis of the deposited data

How the results depend on the processing

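No result changed its direction under another pseudocount or scaling, or under a filter of 10 FPKM. Over these settings and the sum of H2-Q6 to H2-Q9, the class I median ran from -0.12 (pseudocount 0.1) to -0.07 (filter of 10 FPKM), the class II median from -0.07 to -0.05, and the processing median from 0.06 to 0.07; without a filter the class I median was 0, because genes at 0 in both libraries enter it. The count of members past the rule of size was 0 and that past a fold of 1.5 was 1 under all 8 alternatives. None of the 35 members with at least 5 FPKM changed sign in 276 recomputed values (0 of 276). Most of this was fixed beforehand. A pseudocount cannot change the sign of a ratio, and the filters and the sum leave the other member ratios as they were. Only the scalings could change a sign, and their factors on the ratio lay between 0.996 and 1.002. The scalings moved the median of all genes by less than 0.01, from -0.00017 to between -0.0054 and 0.0028. No paired analysis was possible because each group had 1 library, and leaving out a library was not possible for the same reason. Depth limits the values under 1 FPKM most, which rest on about 100 fragments or fewer per library.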
